A study of Mus musculus with 22 samples.

Results

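The genes that encode the translation initiation factors (eIFs) and elongation factors (eEFs) were examined for the RNA footprints of hnRNP A1 in mouse spinal cord. A gene was a member when it was annotated as protein-coding on GRCm38 and its symbol began with Eif or Eef followed by a number, which gave 68 of 21951 protein-coding genes. A footprint is a stretch of the genome where a sequence assembled from a crosslinked and immunoprecipitated (CLIP) library aligned after the sites of its input library and of pooled IgG controls had been taken away. A footprint belonged to a member when it overlapped the gene's span by at least 1 nucleotide (nt), and the nt of a gene under footprints in 1 mouse are called its covered length. In all, 54 members had a footprint in at least 1 mouse and 14 had none.

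All 10 mice were wild-type C57Bl/6 females, and each gave 1 immunoprecipitate with an hnRNP A1 antibody, which the labels name as clone 9H10 and the study's methods as clone 4B10. The naïve group (Naïve_1, Naïve_2 and Naïve_3) was age-matched and not immunized. In the other 7 mice, experimental autoimmune encephalomyelitis (EAE), an inflammatory demyelinating disease used as a model of multiple sclerosis, was induced with MOG(35-55) peptide in complete Freund's adjuvant plus 100 ng of pertussis toxin on days 0 and 1. Immunization was at 12 weeks of age by the treatment protocol and at 8 weeks by the series design, and the spinal cords were taken 15 days after clinical onset. Mild EAE comprised EAE_3 and EAE_4, which both had a clinical score of 1.5, and EAE_7, with a score of 1.0. Severe EAE comprised EAE_1 and EAE_5 with a score of 2.5 and EAE_2 and EAE_6 with a score of 3.0. Values below are given in the order of these names within naïve (1, 2, 3), mild EAE (3, 4, 7) and severe EAE (1, 2, 5, 6).

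Translation begins when eIF2 brings the initiator tRNA to the small ribosomal subunit, eIF3 and the eIF1 and eIF5 factors join it, and the eIF4 factors recruit the capped mRNA and unwind its leader. The elongation factors then act in every cycle of peptide synthesis, with eEF1 delivering aminoacyl-tRNA and eEF2 moving the ribosome along the mRNA. HnRNP A1 is a mainly nuclear RNA-binding protein that takes part in splicing and mRNA export, and it binds preferentially to UAG-containing RNA.

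The lists differed in length, and this touches every comparison below. They held 17119, 17454 and 17494 footprints in naïve mice, 14534, 9751 and 24433 in mild EAE mice and 2670, 209, 31870 and 673 in severe EAE mice. EAE_5 therefore had the longest list of all mice, while the other severe EAE mice had the shortest. The number of reads behind a footprint is unknown, because the lists hold positions alone. By the study's account of library depth, EAE_5 had the most uniquely mapped reads of the immunoprecipitates and EAE_7 the second most. EAE_2, with the shortest list, came next, and Naïve_2 had the fewest. Among genes that mark spinal cord cells, 7 to 8 of 8 neuronal and 5 to 6 of 6 oligodendrocyte genes had a footprint in each naïve mouse. The same ranges held in the mild EAE mice. In severe EAE mice the counts were 2, 0, 8 and 0 for neuronal and 3, 1, 6 and 1 for oligodendrocyte genes. Astrocyte genes with a footprint numbered 3, 3 and 4 of 6 in naïve, 5, 3 and 4 in mild EAE and 3, 0, 6 and 1 in severe EAE. Markers of microglia and leukocytes were footprinted in 1 of 10 in each naïve mouse, in 5 to 6 of 10 in the mild EAE mice and in 2, 0, 6 and 3 of 10 in the severe EAE mice. In whole spinal cord, fewer cells of a type and less RNA per cell cannot be told apart, and the part of cell composition in the results below was not tested.

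Stretches of member RNA covered in at least 6 mice numbered 14, all in coding sequence, and 8 of them are shown as the most repeated signal, namely the 3 covered in 7 mice and the longest of those covered in 6. Each was read from the RefSeq copy of GRCm38.p6 on the strand of the gene, 5′ to 3′, and capitals mark TAG or AGGT, which can overlap in TAGGT. Exon numbers refer to the transcript with the longest coding sequence. The first 3 were covered in 7 mice over their whole length and the others in 6.
Eif4g2, exon 4 of 22, chr7:111080182-111080305, minus strand: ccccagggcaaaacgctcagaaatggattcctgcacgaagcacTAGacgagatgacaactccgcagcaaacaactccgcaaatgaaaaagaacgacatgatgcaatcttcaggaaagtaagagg
Eif4g1, exon 16 of 32, chr16:20682759-20682805, plus strand: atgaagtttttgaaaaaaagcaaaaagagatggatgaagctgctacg
Eif4g1, exon 17 of 32, chr16:20683418-20683450, plus strand: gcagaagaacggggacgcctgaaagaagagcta
Eef1a2, exon 4 of 8, chr2:181152835-181152932, minus strand: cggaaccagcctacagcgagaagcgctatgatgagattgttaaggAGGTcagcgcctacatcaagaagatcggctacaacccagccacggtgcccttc
Eef1g, exon 5 of 10, chr19:8969844-8969937, plus strand: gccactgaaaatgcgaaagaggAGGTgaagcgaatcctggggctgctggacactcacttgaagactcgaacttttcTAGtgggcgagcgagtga
Eef1a2, exon 8 of 8, chr2:181147985-181148072, minus strand: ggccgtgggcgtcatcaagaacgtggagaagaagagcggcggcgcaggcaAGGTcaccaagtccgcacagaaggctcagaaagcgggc
Eif4g3, exon 19 of 34, chr4:138171055-138171128, plus strand: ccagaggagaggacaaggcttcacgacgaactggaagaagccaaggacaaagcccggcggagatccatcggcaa
Eif4g2, exon 12 of 22, chr7:111076938-111077006, minus strand: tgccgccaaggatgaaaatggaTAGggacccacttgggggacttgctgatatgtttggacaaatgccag

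TAG was present in 3 of these 8 stretches and AGGT in 3, with 1 stretch of Eef1g holding both, so that 5 held at least 1 of them. Over all 14 stretches covered in at least 6 mice, 6 held TAG, 3 held AGGT and 8 held at least 1 of them. Among 73478 windows of the same length centred on the midpoints of coding footprints that overlap a single protein-coding gene, in any mouse, the share with TAG ran from 15.8% at 33 nt to 55.9% at 124 nt, and the share with AGGT from 10.6% to 52.2%. These windows were read from the genome without splicing, so they can run past the footprint and across exon ends into introns. They also hold splice-site sequence and are therefore not a like background for stretches in coding sequence. Coding footprints of other protein-coding genes, which vary in length, held TAG in 35.1% and AGGT in 23.6%. The neighbouring stretches of Eif4g1 in exons 16 and 17 were covered in the same 7 mice, namely all 3 naïve mice, EAE_3, EAE_4, EAE_1 and EAE_5. They held neither motif.

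Member genes were footprinted in a larger share than protein-coding genes as a whole in 9 of 10 mice. The number of members with a footprint was 23, 26 and 27 in naïve mice, 33, 19 and 40 in mild EAE mice and 9, 0, 40 and 2 in severe EAE mice. As a share of the 68 members this was 33.8%, 38.2% and 39.7% in naïve, 48.5%, 27.9% and 58.8% in mild EAE and 13.2%, 0%, 58.8% and 2.94% in severe EAE. The same share over all protein-coding genes was 17.7%, 24.1% and 19.9%, then 18.4%, 13.7% and 25.5%, then 5.46%, 0.487%, 29.5% and 1.80%. The exception was EAE_2, in which no member had a footprint. The order of the mice by members footprinted followed list length at both ends, with EAE_7 and EAE_5 highest and EAE_2 lowest. Of the 21951 protein-coding genes, 9999 had a footprint in any mouse. RNA with too few reads to assemble leaves no footprint, and the part of RNA abundance in the members' larger share was not tested.

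**Figure D1:**
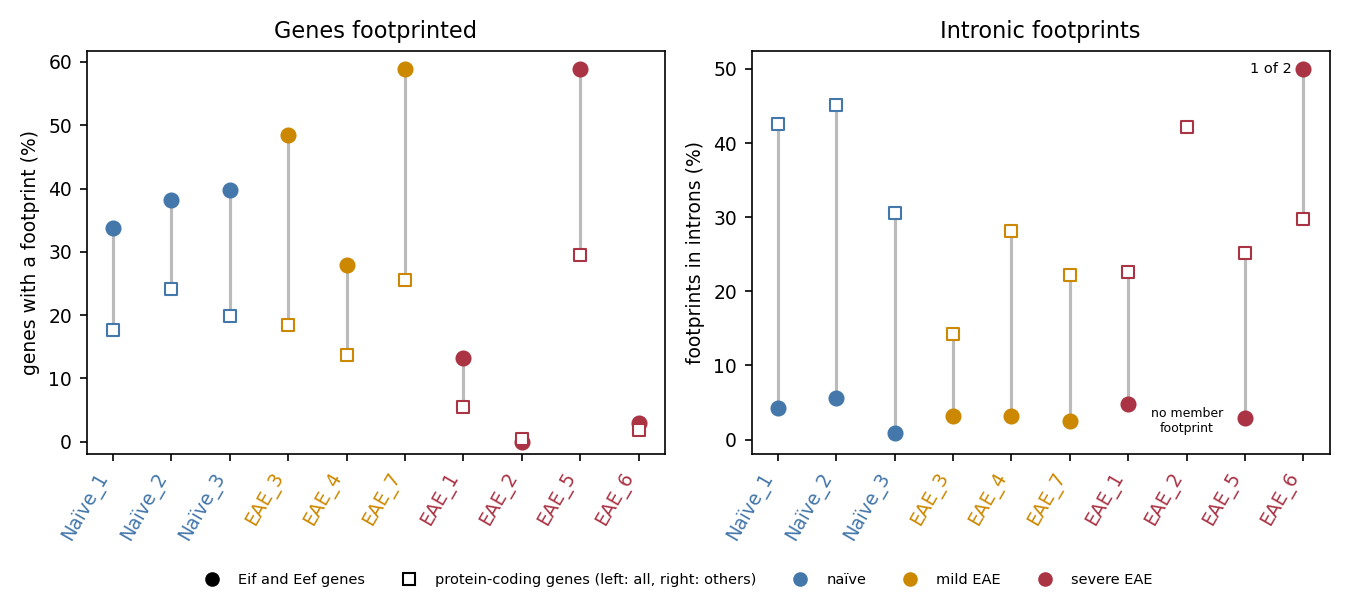
Each mouse is 1 position on the x axis, coloured by group; filled circles are the Eif and Eef genes and open squares the protein-coding genes (all of them on the left, those outside the list on the right). Left, genes with a footprint in percent, where the circle lies above the square in every mouse but EAE_2; right, footprints with their midpoint in an intron in percent, where the circles lie at 5.63% or lower in 8 mice, EAE_2 has no member footprint and EAE_6 has 1 intronic footprint of 2.

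The members held 818 footprints in the 10 mice. Naïve mice had 70, 71 and 105, mild EAE mice 124, 63 and 157, and severe EAE mice 21, 0, 205 and 2. Taken as a share of each mouse's own list, these were 0.409%, 0.407% and 0.6002% in naïve, 0.853%, 0.646% and 0.643% in mild EAE, and 0.787%, 0%, 0.643% and 0.297% in severe EAE. All 3 mild EAE mice thus lay above all 3 naïve mice in this share, by a small margin between EAE_7 and Naïve_3, and the severe EAE mice lay on both sides of them. The coding share of footprints in other protein-coding genes was likewise higher in all 3 mild EAE mice. It was 51.5%, 45.1% and 61.5% in naïve, 79.3%, 64.6% and 69.4% in mild EAE and 61.6%, 35.2%, 64.0% and 47.6% in severe EAE. Member footprints lay mostly in coding sequence, and the part of this shift in their share was not tested. The mean share was 0.472% ± 0.111 (SD, n = 3) in naïve and 0.714% ± 0.121 (n = 3) in mild EAE.

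Footprints in members were concentrated in coding sequence. By the midpoint, 703 of 818 (85.9%) lay in coding sequence, 54 in a 3' UTR, 28 in a 5' UTR, 26 (3.18%) in an intron and 7 in a noncoding exon. Of 124502 overlaps with other protein-coding genes, 62.3% lay in coding sequence and 29.0% in introns. Introns and other parts outside exons make up 82.5% of the members' spans and 90.9% of the spans of other protein-coding genes. The median over mice of the covered coding sequence was 52.7 nt per 1000 nt in the members and 18.6 in other genes, while for introns it was 0.328 and 0.583 nt per 1000 nt. In the members' 3' UTRs the median was 4.39 nt per 1000 nt, against 2.26 in other genes.

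The intronic share of member footprints was 4.29%, 5.63% and 0.952% in naïve mice, 3.23%, 3.17% and 2.55% in mild EAE mice, and 4.76%, 2.93% and 50% in EAE_1, EAE_5 and EAE_6. In other protein-coding genes it was 42.5%, 45.1% and 30.6% in naïve, 14.2%, 28.1% and 22.2% in mild EAE and 22.6%, 42.1%, 25.2% and 29.8% in severe EAE. The members' share was the lower one in 8 of the 9 mice with a member footprint, and the exception, EAE_6, had 1 intronic footprint of 2. The mean difference of EAE minus naïve in the members, 7.48 percentage points, became -0.297 when EAE_6 was left out.

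Many footprints ended exactly at an exon border. At least 1 end lay on an annotated exon end for 75.7%, 73.2% and 84.8% of member footprints in naïve, 82.3%, 84.1% and 80.3% in mild EAE, and 66.7%, 77.6% and 50% in EAE_1, EAE_5 and EAE_6. For other protein-coding genes this share was 43.3%, 33.1% and 51.2%, then 70.7%, 53.2% and 60.1%, and 46.7%, 55.1% and 37.3% in the same 3 severe EAE mice. In 324 cases, footprints of 1 mouse ended on both splice sites of the same intron, as the exon pieces of a spliced alignment do. Joined across such introns, the 818 footprints made 498 stretches with a median of 146.5 nt, of which 253 consisted of more than 1 piece and the longest chain of 5. A count of footprints in these genes is thus larger than a count of assembled sequences.

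The cap-binding and helicase factors, which bind the 5′ cap and unwind the mRNA leader, held 46.0% of the covered length of all members. Of these 12 genes, 10 had a footprint in some mouse and 6 had one in all 3 naïve mice. Eif4g1 encodes the scaffold that joins the cap-binding protein, the helicase and eIF3. Its covered length was 1315, 626 and 1294 nt in naïve, 1522, 1003 and 1424 nt in mild EAE and 542, 0, 1780 and 0 nt in severe EAE. The highest and the lowest mice both belonged to severe EAE, and the naïve and mild EAE ranges overlapped. Group means were 1078 ± 392 nt in naïve, 1316 ± 276 nt in mild EAE and 580.5 ± 839 nt in severe EAE (SD, n = 3, 3 and 4), and the exact permutation test gave p = 0.5 for mild EAE against naïve and p = 0.343 for severe EAE against naïve.

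Eif4g2 encodes a related scaffold that lacks the site for the cap-binding protein. It had 532, 730 and 603 nt in naïve, 753, 709 and 1002 nt in mild EAE and 558, 0, 2229 and 0 nt in severe EAE. The naïve and mild EAE mice met between 709 and 730 nt, so these groups overlapped narrowly. The mean was 622 ± 100 nt in naïve and 821 ± 158 nt in mild EAE (SD, n = 3 each), with p = 0.2 in the exact permutation test. Its coverage kept to a small portion of the transcript: summed over mice, 6579 nt lay in 2856 nt of coding sequence, 382 nt in 5236 nt of 3' UTR and 68 nt in 5115 nt of introns. Over the spliced transcript, 30.7% of its 7995 nt was covered in at least 1 mouse and 10.5% in at least 4. In Eif4g1 the corresponding shares were 63.8% and 20.7% of 5638 nt.

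**Figure D2:**
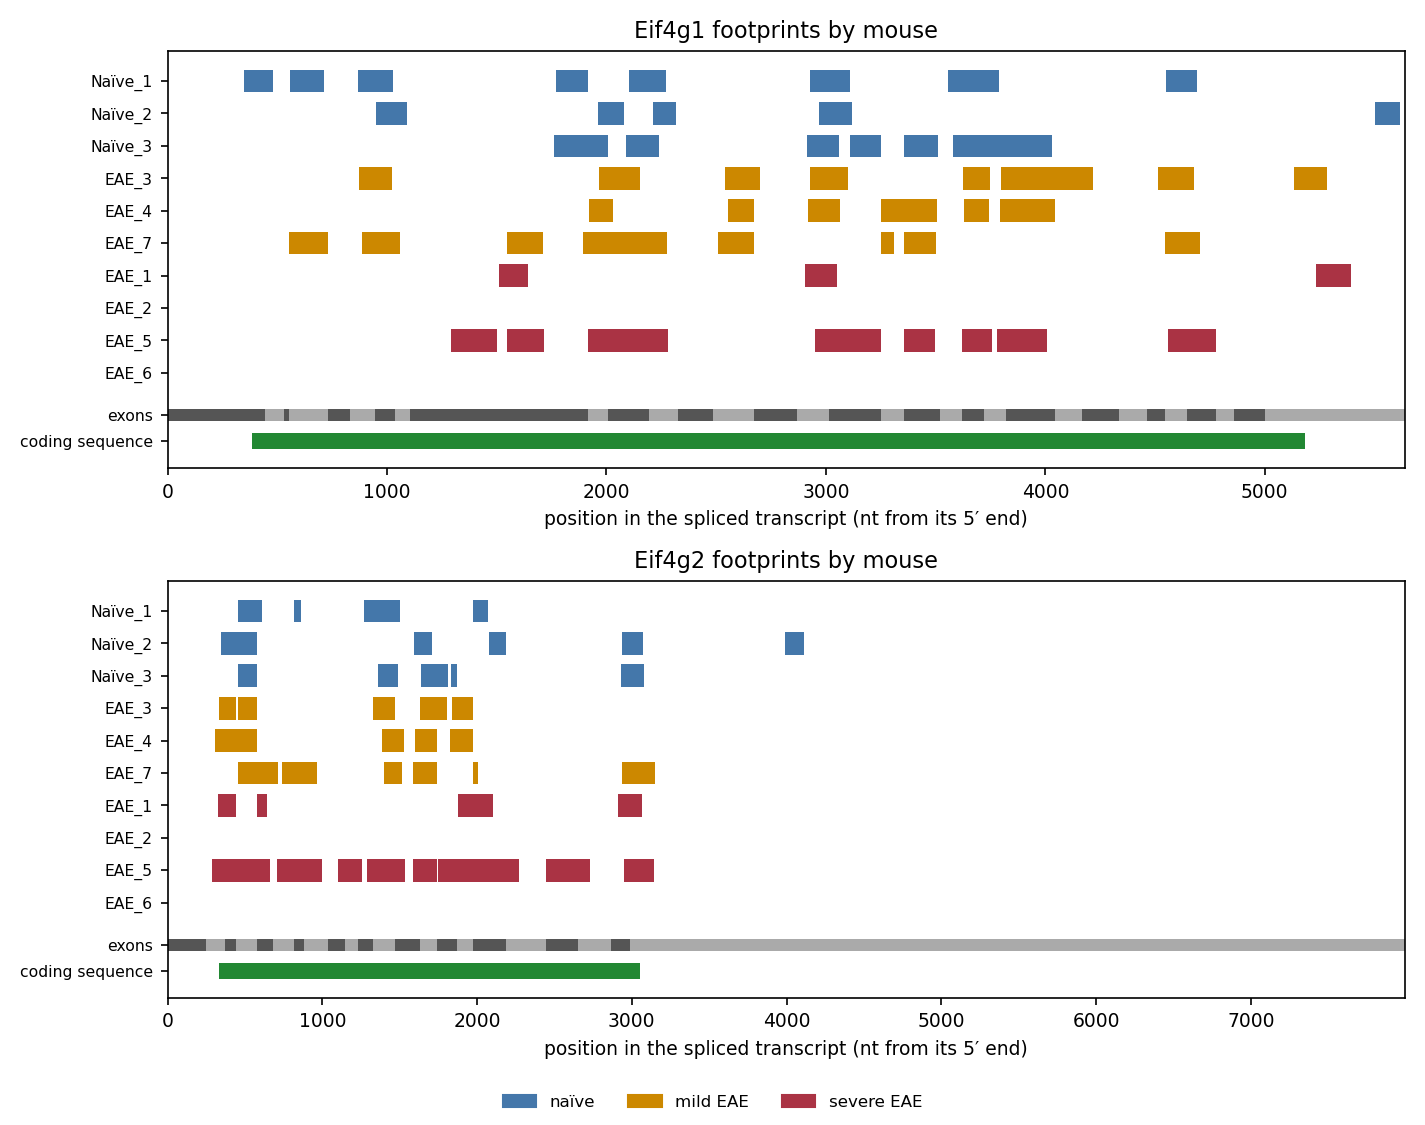
Footprints of Eif4g1 (top) and Eif4g2 (bottom) drawn on the spliced transcript with the longest coding sequence, as nt from its 5′ end on the x axis, with 1 row per mouse coloured by group, exons in alternating grey and the coding sequence in green. The same places recur in naïve, mild EAE and EAE_5 rows, EAE_2 and EAE_6 have none, and the long 3' UTR of Eif4g2 is nearly empty.

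Eif4g3, the third scaffold, had nearly equal values in naïve mice (565, 594 and 584 nt), followed by 510, 360 and 963 nt in mild EAE. In severe EAE it was covered in EAE_5 alone, at 1629 nt. Its 3 intronic footprints came from 1 mouse, Naïve_2. Eif4a1 and Eif4a2 encode the DEAD-box helicase of the complex. Eif4a2 had 241, 0 and 713 nt in naïve, 553, 181 and 1055 nt in mild EAE and 142, 0, 1447 and 140 nt in severe EAE, and it was 1 of only 2 members seen in EAE_6. Eif4a1 had 341, 120 and 140 nt in naïve, 624, 0 and 623 nt in mild EAE and 145, 0, 1170 and 0 nt in severe EAE. The groups overlapped for both helicase genes, and EAE_5 was the highest mouse in each.

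Eif4b and Eif4h encode cofactors that stimulate the helicase. Eif4b had 256, 252 and 823 nt in naïve, 669, 186 and 928 nt in mild EAE and, in severe EAE, 1128 nt in EAE_5 alone. Eif4h ranged from 130 to 283 nt in naïve and from 0 to 505 nt in mild EAE, with 719 nt in EAE_5. The cap-binding protein itself, Eif4e, had a footprint in Naïve_3 (119 nt) and EAE_7 (298 nt), and no other mouse. Eif4e2, a cap-binding homologue, and Eif4a3, a helicase-family protein of the exon junction complex, had no footprint in naïve mice and each had one in EAE_3 and EAE_7, at 160 and 164 nt for Eif4e2 and 166 and 146 nt for Eif4a3. Eif4e2 was also covered in EAE_5, at 149 nt. With Eif2ak3 below, these were the 3 members found in at least 2 mild EAE mice and in no naïve mouse, while 2 members, Eef1d and Eif2d, had footprints in at least 2 naïve mice and no mild EAE mouse. Of the 6198 genes with a footprint in at least 2 of these 6 mice, 7.24% showed the former pattern and 7.63% the latter, against 7.89% and 5.26% of 38 members.

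All 14 genes of eIF3, the multi-subunit factor that holds the small ribosomal subunit ready, had a footprint in some mouse, and together they held 21.7% of the members' covered length. By mouse, 5, 7 and 10 of them were footprinted in naïve, 9, 4 and 12 in mild EAE and 2, 0, 12 and 0 in severe EAE. Eif3a, the largest subunit, had 534, 457 and 397 nt in naïve, 593, 0 and 333 nt in mild EAE and 65, 0, 873 and 0 nt in severe EAE. Eif3b, a scaffold subunit, had 0, 345 and 294 nt in naïve, 271, 225 and 671 nt in mild EAE and 599 nt in EAE_5 alone among severe EAE mice. The groups overlapped for both genes.

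Eif3g, an RNA-binding subunit, had no footprint in any severe EAE mouse, including EAE_5 with the longest list. It had 123, 0 and 155 nt in naïve and 375, 294 and 137 nt in mild EAE. Mild and severe EAE therefore did not overlap, while Naïve_2 also had none. The difference of severe EAE minus mild EAE was -268.67 nt (p = 0.0286 in the exact permutation test, the smallest that 4 against 3 mice allow, and 0.985 after Benjamini-Hochberg adjustment over 5611 genes). All severe EAE mice lay below all mild EAE mice in 2.57% of the genes tested and in 2 of 38 members, Eif3g and Eif5a2. In no gene tested (0%) did every severe EAE mouse lie above every mild EAE mouse. The Eif3g stretch chr9:20897707-20897766, 60 nt of coding sequence, was covered end to end in the same 5 mice that had any Eif3g footprint.

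Eif3j1 and Eif3j2 are near copies, and their values are not independent. Their coding sequences aligned over 789 columns with 783 identical bases and 6 gap columns, and Eif3j2 is annotated with a single exon. In the 5 mice with footprints in both, the covered coding nt were 114 and 114 in Naïve_2, 108 and 108 in EAE_3, 135 and 135 in EAE_4, 118 and 119 in EAE_7 and 165 and 174 in EAE_5, for Eif3j1 and Eif3j2 in turn. Every covered coding base of Eif3j1 lay at the aligned position of a covered base of Eif3j2. Naïve_1 and Naïve_3 had Eif3j2 footprints alone, of 204 and 144 nt. Which of the copies the RNA came from cannot be told apart here.

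Among the factors of start codon selection, Eif5b, the GTPase of subunit joining, had 184, 259 and 187 nt in naïve, 140, 114 and 563 nt in mild EAE and 548 nt in EAE_5. Eif1, which guards the fidelity of start codon choice, had 44, 44 and 488 nt in naïve, 179, 0 and 97 nt in mild EAE and 133, 0, 344 and 0 nt in severe EAE. Eif2d was covered at 149 and 118 nt in Naïve_1 and Naïve_2, in no mild EAE mouse, and at 147 nt in EAE_5, there in an intron. Eif5, which triggers GTP hydrolysis by eIF2, had 0, 128 and 398 nt in naïve, 293, 0 and 268 nt in mild EAE and 419 nt in EAE_5. Other members of this class, Eif1a, Eif1ax and Eif1b, were each seen in 1 or 2 mice.

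Genes of eIF2, of its exchange factor eIF2B and of the eIF2 kinases, which together set the stress-controlled step of initiation, had sparse footprints. The 10 genes classed with eIF2 and its exchange factor held 2.69% of the members' covered length. They include Eif2a, which encodes a separate factor and had 149 nt in EAE_4 alone. Of the 10, 2 were footprinted in any naïve mouse and 7 in any mild EAE mouse. The shares of all protein-coding genes with a footprint in any mouse of each group were not counted, and the mild EAE group includes the long list of EAE_7. By mouse the number was 0, 1 and 1 in naïve, 2, 3 and 4 in mild EAE and 0, 0, 4 and 0 in severe EAE. Eif2s3x, an X-linked gamma subunit of eIF2, was the most often covered, at 0, 219 and 0 nt in naïve, 145, 129 and 175 nt in mild EAE and 271 nt in EAE_5. Its Y-linked counterpart Eif2s3y had no footprint in these female mice. Eif2s1, the alpha subunit that the kinases phosphorylate, had 144 nt in EAE_4 and 145 nt in EAE_5.

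None of the 4 eIF2 kinase genes had a footprint in a naïve mouse, and all 4 had one in at least 1 mild EAE mouse. Eif2ak3 (PERK, the kinase of the endoplasmic reticulum) had 138 nt in EAE_3 and 140 nt in EAE_4, and both footprints lay in an intron on the snoRNA gene Gm23346. Eif2ak1 (HRI) had 299 nt in EAE_7 and 293 nt in EAE_5, and 5 of its 7 footprints also overlapped Aimp2 or Ankrd61, which the lists cannot separate because they carry no strand. Eif2ak2 (PKR) and Eif2ak4 (GCN2) were covered in EAE_7 alone, at 132 and 188 nt. No kinase was covered in more than 2 mice, and EAE_7 had the longest list of the mild EAE mice. The share of all protein-coding genes with a footprint in some mild EAE mouse and no naïve mouse was not counted.

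The eEF1 genes held 13.0% of the members' covered length. Eef1a2, the form of the tRNA-delivering factor that neurons and muscle use, had 578, 120 and 824 nt in naïve, 515, 720 and 737 nt in mild EAE and 163, 0, 1335 and 0 nt in severe EAE. Naïve mice spanned the mild EAE values, and severe EAE held both extremes. Per length, Eef1a2 was the most covered member, with a mean of 23.9% of its 2084 exonic nt over the 10 mice, followed by Eif4g1 with 12.9% of 7301 nt, Eif4b with 9.45% of 4468 nt and Eef2 with 9.23% of 3324 nt. Eif4g2, second in covered nt, came eighth by this measure, at 6.93% of 10166 nt.

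Eef1a1, the widely expressed form of the same factor, showed the lowest p of any member in the comparison of EAE with naïve. It had 101, 172 and 165 nt in naïve, 140, 0 and 0 nt in mild EAE and 0, 0, 27 and 0 nt in severe EAE. Every severe EAE mouse lay below every naïve mouse, and EAE_3 lay within the naïve range. The means were 146 ± 39.1 nt for naïve, 46.7 ± 80.8 nt for mild EAE and 6.75 ± 13.5 nt for severe EAE (SD, n = 3, 3 and 4). EAE minus naïve was -122.14 nt (exact permutation p = 0.0167, 0.670 after adjustment over 7159 genes), and severe EAE minus naïve was -139.25 nt (exact permutation p = 0.0286, 0.712 after adjustment over 5755 genes). The naïve footprints did not coincide: the coding stretches of the 3 naïve mice lay at different places, and the sole stretch covered in 3 mice was 22 nt of the 5' UTR in Naïve_1, EAE_3 and EAE_5.

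The genes of the eEF1 exchange complex reload eEF1A with GTP. Eef1g had 297, 199 and 630 nt in naïve, 238, 136 and 358 nt in mild EAE and 438 nt in EAE_5. Eef1b2 had 133, 133 and 169 nt in naïve, 90, 198 and 440 nt in mild EAE and 364 nt in EAE_5. Eef1d was covered in Naïve_1 (278 nt), Naïve_2 (167 nt) and EAE_5 (521 nt). Both Eef1g and Eef1b2 were thus present in all naïve and mild EAE mice and in 1 severe EAE mouse.

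Eef2, which encodes the translocase of elongation, was covered in 9 of 10 mice, more than any other member. It had 439, 163 and 173 nt in naïve, 1017, 490 and 178 nt in mild EAE and 132, 0, 354 and 123 nt in severe EAE. EAE_3 and EAE_4 exceeded all naïve mice and EAE_7 did not. The mean was 258 ± 157 nt in naïve, 562 ± 424 nt in mild EAE and 152 ± 147 nt in severe EAE (SD, n = 3, 3 and 4), with exact permutation p = 0.2 for mild EAE against naïve and 0.0857 for severe against mild EAE. Some places were shared between groups and some were not. Of 5 stretches shared by mild EAE mice, 3 were met by footprints of other groups (74 and 44 nt of coding sequence and 187 nt of 3' UTR) and 2 were not (55 nt of 5' UTR and 125 nt of coding sequence), while the 45-nt coding stretch shared by naïve mice had no footprint in EAE. Eef2k, the kinase that inhibits eEF2, had 138 nt in EAE_7 alone.

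**Figure D3:**
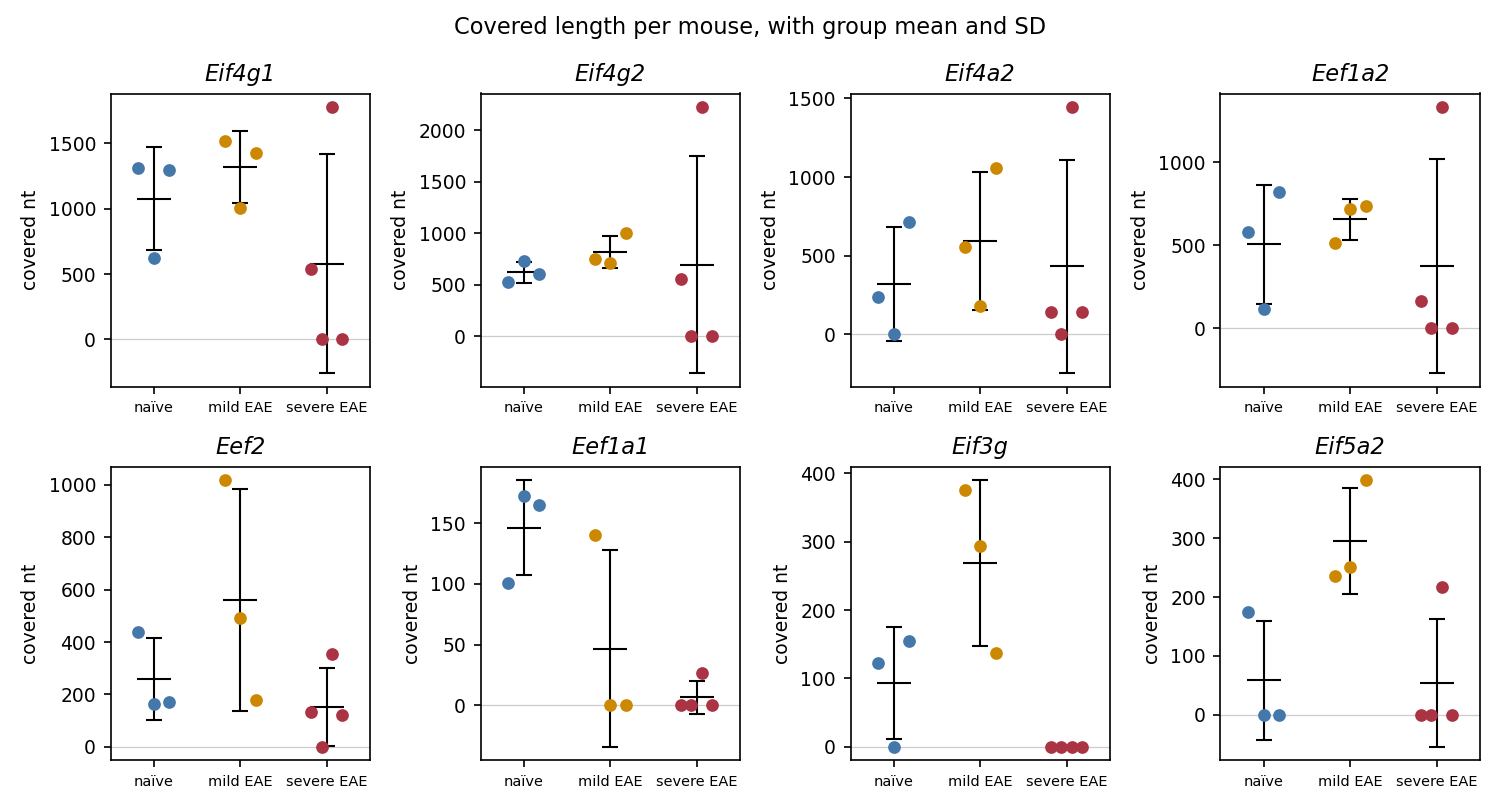
Covered nt of 8 members (y axis, each panel with its own scale) in naïve, mild EAE and severe EAE mice; points are mice, and horizontal lines with bars are the group mean and SD, which can reach below 0 where most mice are at 0. The high severe EAE point is EAE_5 in every panel but Eif3g, where all 4 severe EAE mice are at 0.

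The remaining class held Eif5a2, a paralogue of the hypusine-bearing factor Eif5a, whose coverage came mostly from an intron, and Eif5a itself, which was covered in 1 naïve mouse (122 nt), 2 mild EAE mice (282 and 130 nt) and EAE_5 (140 nt). Eif5a2 had 175, 0 and 0 nt in naïve, 236, 251 and 398 nt in mild EAE and 0, 0, 217 and 0 nt in severe EAE. Mild EAE lay above every naïve mouse and every severe EAE mouse. The difference of mild EAE minus naïve was 237 nt (exact permutation p = 0.1, the smallest that 3 against 3 allow, and 0.938 after adjustment over 6198 genes). Of its 7 footprints 5 lay at chr3:28787279-28787530 in an intron, and with exons alone the separation from naïve was lost. The 83 nt shared by all 5 covered mice are printed because this result turns on them.
Eif5a2, intron, chr3:28787309-28787391, plus strand: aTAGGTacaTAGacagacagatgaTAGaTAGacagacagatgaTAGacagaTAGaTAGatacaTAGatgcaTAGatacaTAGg
The stretch is a tandem repeat with 10 occurrences of TAG and 1 of AGGT. Of 30373 windows of 83 nt centred on intronic footprints, 70.1% held TAG at least 1 time and 3.00% held it 10 times or more. Whether an aligned repeat of this kind came from this gene or from a similar repeat elsewhere was not tested.

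Much of the remaining signal outside coding sequence and UTRs lay on small RNA genes. In the spans of 17 members, 29 small RNA genes are annotated on the same strand, and 9 of them were overlapped by a footprint. Counting introns and noncoding exons together, 20 footprints in 6 members lay on such a gene while 13 intronic ones lay elsewhere, 5 of them those of Eif5a2. Of the 20, 2 came from naïve (1, 0 and 1 by mouse), 11 from mild EAE (4, 2 and 5) and 7 from severe EAE mice (2, 0, 4 and 1). Of the 8 that lay neither on a small RNA gene nor in Eif5a2, 6 came from naïve mice, 0 from mild EAE and 2 from severe EAE. Naïve_2 alone gave 4 of the 6, and EAE_5 gave both severe EAE ones. In mild EAE, Eif5a2 held all 3 intronic footprints off small RNA genes. The same counts over all protein-coding genes were not made. Eif4a2 held the most repeated pair. Its snoRNA gene Gm24201 was overlapped in Naïve_3, EAE_3, EAE_4, EAE_7 and EAE_5, and Gm24616 in EAE_3, EAE_7, EAE_5 and EAE_6. The 102 nt of the former that all 5 mice covered, which are annotated as a noncoding exon in a transcript of Eif4a2, are shown as an example of a small RNA inside a member.
Eif4a2, snoRNA gene Gm24201, chr16:23110393-23110494, plus strand: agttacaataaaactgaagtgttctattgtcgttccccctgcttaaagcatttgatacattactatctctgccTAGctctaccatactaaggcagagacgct
In Eif4a1, Gm25835 was overlapped in EAE_3, EAE_7 and EAE_5, and Gm22988 in EAE_7 and EAE_1. Snora41 in Eef1b2 was overlapped in Naïve_1 and EAE_7, Snora19 in Eif3a in EAE_5 and Snord66 in Eif4g1 in EAE_1. The covered length of Eif4a2 in EAE_6 consisted wholly of the 140 nt on Gm24616.

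The 14 members with no footprint in any mouse were Eif6, Eif2b1, Eif4e1b, Eif4e3, Eif1ad, Eif2s3y, Eif4ebp1, Eif4ebp3, Eef1e1, Eef2kmt and Eef1akmt1, Eef1akmt2, Eef1akmt3 and Eef1akmt4. The last 5 are the methyltransferases of elongation factors, none of which was covered. Of the inhibitors of the cap-binding protein, Eif4ebp2 was covered in Naïve_2 (226 nt), EAE_3 (130 nt) and EAE_5 (299 nt), wholly in its 3' UTR, and the transporter gene Eif4enif1 in EAE_3 (291 nt). Both footprints of Eif4enif1 also overlapped Drg1, as 4 footprints of Eif3m overlapped Ccdc73 and the sole one of Eif2s2 overlapped the gene a, and these cannot be assigned to 1 gene. In lists without read counts, the lack of a footprint gives no upper limit on binding.

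**Figure D4:**
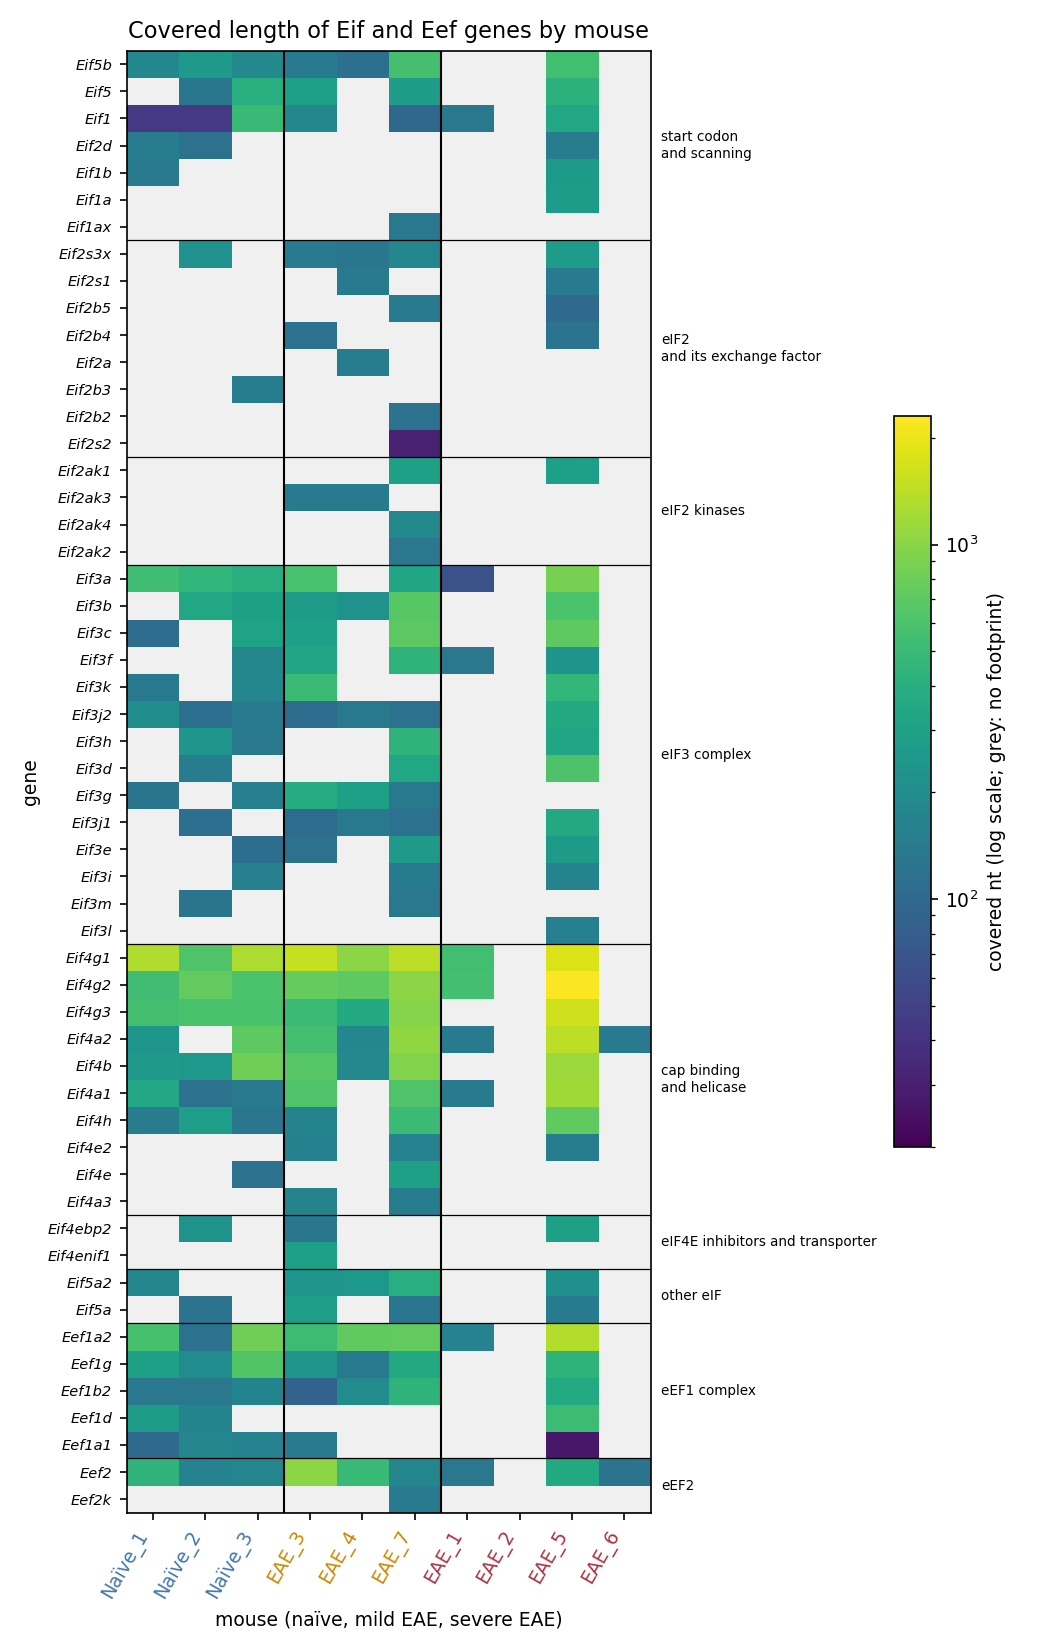
Covered nt (colour, log scale, grey for no footprint) of the 54 members with a footprint, in rows grouped by role and ordered by total, against the 10 mice in columns, with lines between naïve, mild EAE and severe EAE. EAE_5 resembles the mild EAE columns in the number of filled rows (40, as in EAE_7), and EAE_1, EAE_2 and EAE_6 have 9, 0 and 2 filled rows.

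Over all members, no gene passed the test of covered length in any comparison. For EAE against naïve, 0 of 7159 genes had an adjusted p below 0.05 by the exact permutation test with Benjamini-Hochberg adjustment, 344 had an unadjusted p below 0.05, and 1 of these was among the 43 members tested (Eef1a1). For severe EAE, 0 genes passed against naïve or mild EAE after adjustment, with 178 and 91 genes at an unadjusted p below 0.05, 1 of them a member each time. The smallest p of 3 mild EAE against 3 naïve mice is 0.1.

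Groups that did not overlap were counted as a description. No member had all EAE mice above or all below all naïve mice, against 0.014% and 1.47% of all genes tested. For mild EAE against naïve, 1 of 38 members (Eif5a2) lay above in every mouse and 0 below, against 4.18% and 4.74% of all genes. For severe EAE against naïve, 0 of 34 members lay above and 1 (Eef1a1) below, against 0.0174% and 4.4%. For severe against mild EAE, the 2 of 38 members below (5.26%) stood against the 2.57% given above. With 0 to 2 members a comparison, these counts are too few to set the members apart from all genes.

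More members had a higher mean covered length in mild EAE than in naïve mice than had a lower one. Over all 68 members, 41 were higher, 11 lower and 16 had no footprint in these mice, while over all 21951 protein-coding genes 4428 were higher and 4707 lower. Among the 33 members with a footprint in both groups, 26 were higher and 7 lower, with a median difference of 76.7 nt, against 51.8% higher and a median of 2 nt over 5276 such genes. Of the 38 members with a footprint in at least 2 of the 6 mice, 29 were higher, and for Eif4a3, Eif4e2 and Eif2ak3, with no naïve footprint, that filter fixed the direction. The count depended on EAE_7, the mild EAE mouse with the longest list: without it, 17 of 32 members were higher (53.1%). With the covered length taken as a share of each mouse's list, 28 of 38 were higher. The shares over all protein-coding genes without EAE_7 and by share of list were not counted. The members therefore cannot be set against all genes in these settings. For severe EAE minus naïve, 10 of 34 members were higher (29.4%, against 25.9% of all genes), and for severe minus mild EAE 3 of 38 (7.89%, against 22.7%), in lists of which 3 of 4 held the fewest footprints.

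The places covered within members recurred between mice. Stretches covered in at least 2, 3, 4, 5, 6 and 7 mice numbered 209, 116, 64, 38, 14 and 3, and no stretch was covered in 8. Of the 64 in at least 4 mice, 57 lay in coding sequence, and they fell in 17 members. Within groups, naïve mice shared 52 stretches in 18 members (covered in at least 2 of the 3), mild EAE mice 79 in 24 and severe EAE mice 16 in 5. Among these, 26 naïve stretches overlapped a mild EAE one, and 12 naïve (23.1%) and 11 mild EAE (13.9%) stretches had no footprint in the other groups. In other protein-coding genes these shares were 26.8% of 7198 and 16.6% of 8628 stretches, so the members' shares were close to them. Of the 11 mild EAE stretches, 2 lay in Eif3j1. Its near copy Eif3j2 had footprints of Naïve_1, Naïve_3 and EAE_5 over part of the same aligned sequence. Eif3a contributed 3 of the 12 naïve stretches, of 40, 106 and 136 nt, and Eif4g1 contributed 2 of the 11 mild EAE stretches, of 131 and 58 nt. Every one of the 16 severe EAE stretches was met by a footprint of another group. In other protein-coding genes, 18.2% of 1316 severe EAE stretches had no footprint in the other groups. The members' severe EAE share thus differed from that of other genes, but it rests on 16 stretches in 5 members.

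The motif content of coding footprints was compared by group in footprints that overlapped 1 protein-coding gene alone. On the strand of the gene, TAG was found in 40.3% of 211 member footprints in naïve, in 37.8% of the 296 from mild EAE mice and in 39.2% of the 186 from severe EAE mice. AGGT was found in 19.9%, 21.6% and 23.1%. By mouse with over 50 such footprints, the TAG share ran from 38.7% to 42.6% in naïve and from 34.9% to 41.1% in EAE, so these ranges overlapped, and the AGGT share ran from 16.7% to 21.1% and from 16.1% to 26.7%. Over all mice, TAG occurred 6.10 times and AGGT 2.68 times per 1000 nt of member footprints, against 5.39 and 3.154 times in other protein-coding genes.

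Other genes of translation outside the symbol rule were listed for comparison, among them release factors, poly(A)-binding proteins and kinases of the pathway. Of 37 such genes, 27 had a footprint in some mouse. By mouse, 9, 15 and 13 were footprinted in naïve, 14, 11 and 16 in mild EAE and 4, 0, 22 and 0 in severe EAE, which followed the same order of mice at its ends as the members did.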

How the data were processed

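CLIP libraries of 10 spinal cords were analysed, 1 per mouse (of 22 samples in the series, the 10 inputs and 2 pooled IgG controls entered only through the subtraction). Per the labels and the study's methods, the authors extracted and trimmed reads with bcl2fastq 2.19.0.316 and fastp, built contigs from each library with rnaSPAdes, placed them on GRCm38 by spliced alignment (minimap2 2.17) and subtracted input and IgG sites using bedtools. The deposited lists hold positions only, without strand, score or count. The depth behind a footprint is therefore unknown, RNA with too few reads to assemble leaves none, and overlapping genes cannot be separated.

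Footprints were intersected with the gene spans of GENCODE mouse release 21 (minimum overlap 1 nt) in Python 3.11.15 with numpy 2.4.6, and classed by their midpoint. For each comparison, every protein-coding gene with a footprint in at least 2 of the mice compared was tested with a two-sided exact permutation test of mean covered nt, with Benjamini-Hochberg adjustment over all genes tested. On simulated data for EAE against naïve, the call of groups that do not overlap found 200 of 200 seeded genes among 5000. The seeded change was larger than the simulated spread between mice, which fixed this outcome in advance. Whether the adjusted permutation test recovers seeded genes was not tested. The rule for named members took the 12 footprinted in the most mice, those in all naïve and no severe EAE mice (there were 0), those in at least 2 mild EAE and no naïve mice, those whose groups did not overlap, 12 with a stretch shared by at least 4 mice, Eif2s3x with Eif2s3y, and a list of those without a footprint. Members named beside these for their role were chosen after their values were seen, as were the sequences of Eif5a2 and Gm24201. The members and lists were chosen with earlier results of these data known. Alternatives changed the footprint lengths, merging, overlap rule, gene filter and scaling, and left out each mouse in turn.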

Additional observations from a re-analysis of the deposited data

Results flagged for a closer look

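EAE_5 stood far from the other 3 severe EAE mice in 17 of 26 values examined, measured by the gap to the nearest mouse over the range of the group. These were the footprints in members (205), their covered length (21992 nt) and the covered nt of Eef1a1 (27), Eef1a2 (1335), Eef1b2 (364), Eef1g (438), Eif2s3x (271), Eif3a (873), Eif3b (599), Eif4a1 (1170), Eif4a2 (1447), Eif4b (1128), Eif4e2 (149), Eif4g3 (1629), Eif4h (719), Eif5a2 (217) and Eif5b (548). Apart from Eef1a2, Eif3a, Eif4a1 and Eif4a2, these genes were at 0 in the other severe EAE mice. Where the other 3 severe EAE mice are at 0, this measure marks any value of EAE_5 above 0. For such genes the mark therefore says only that EAE_5 alone had a footprint. The values of 1 mouse are also not independent of each other. EAE_5 also had the longest list and, by the study's account, the most uniquely mapped reads of the immunoprecipitates. The part of list length and read depth in these values was not tested. The study describes this mouse as an outlier of the severe EAE group that had been in remission shortly before the end of the experiment. Among the 7 EAE mice, EAE_3 stood apart in Eef1a1, at 140 nt.

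The covered length of Eif3g was higher in mild EAE than in naïve mice by 176 nt and lower in severe EAE than in naïve mice, by -92.7 nt. Their difference is that of severe minus mild EAE, -268.67 nt, which had p = 0.0286 in the exact permutation test and 0.985 after adjustment over all genes tested.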

How the results depend on the processing

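The count of genes that passed the adjusted exact permutation test was 0 throughout, which says nothing about stability, since mild EAE against naïve cannot reach a p below 0.1 and severe EAE against either group none below 0.0286. As EAE minus naïve, the members footprinted differed by -4.90 (-8.17 to -1.5 with each mouse left out in turn), their footprints by -0.286 (-20.8 without EAE_5 to 13.3 without EAE_2), covered length by 542 nt (-1761 without EAE_5 to 1904 without EAE_2) and the intronic share by 7.48 points (-0.297 without EAE_6 to 9.19). Without EAE_1, EAE_2 and EAE_6, the EAE mice with the shortest lists and a choice made after seeing the data, these were 7.67, 55.25, 6102.5 nt and -0.655 points. Members that did not overlap between groups numbered 0 for EAE against naïve (0 to 1 with a mouse left out, Eef1a1 without Naïve_1 or EAE_3, and 1, Eif5a2, without the shortest lists). For mild EAE against naïve there was 1 (3 to 9 with a mouse left out, 3 by share of list, 0 with exons alone). For severe EAE against naïve there was 1 (1 to 11, the latter without EAE_5), and against mild EAE 2 (2 to 16, the latter without EAE_5, 4 by share of list, 1 with exons alone and 1 among genes in at least 4 mice). Members with a higher mean in mild EAE than naïve numbered 29 (17 without EAE_7 to 30), and the shares over all genes with a mouse left out were not counted. Of 396 values of 22 named members, 394 were labelled as unmoved. Most of these differed from the main value by less than the spread within groups. Values by share of list or on a log scale were unmoved when they and the main value both exceeded, or both fell short of, their own spread. That spread is wide where EAE_5 alone is covered, so this count says little about stability. Of the values of the results above it, with counts judged by their ratio, 20 moved and 153 did not.

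The correlations of the deviations of mice with the same number were -0.161, 0.384 and 0.0887 for numbers 1, 2 and 3. Pairs with different numbers ran from -0.363 to 0.257. These EAE mice had lists of very unlike length, so the correlations cannot show whether mice with the same number were linked. With the number as a replicate block, the differences were -11.3 members, -33.7 footprints, -3034 nt and 1.37 points.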
